A study of Mus musculus with 4 samples.

Results

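The kidneys of vancomycin-treated mice were compared between 2 times of injection, ZT14 and ZT2. Zeitgeber time (ZT) counts hours from lights on, so ZT2 lies early in the light phase and ZT14 early in the dark phase, when mice are active. The comparison holds 2 of the 4 arrays of the series, 1 array per time, and covers the 23372 gene entries of 37074 on the array whose probe was well above background on at least 1 of the 2 arrays. Vancomycin is a glycopeptide antibiotic that the kidney clears and that can injure the tubules. The other 2 arrays came from mice injected with saline at ZT2 and at ZT14, and their time difference is given beside that of the vancomycin kidneys as a background measured in the same way.

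All 4 groups were ICR mice, an outbred stock, and kidney was taken 1 day after the injection. The labels give neither dose, sex nor age, and do not say whether an array holds RNA of 1 mouse or of a pool. Total RNA was amplified, labelled with Cy3 and hybridised to a 1-colour Agilent expression array with 60-base probes. With 1 array a side there is no replicate error, no test was run, and each difference below is a single value. Both ZT2 arrays were on 1 slide and both ZT14 arrays on another, which were scanned on different dates, so slide and time cannot be told apart in any difference given here. Levels are log2 processed signals relative to the 75th percentile of the array, and a difference is ZT14 minus ZT2 on that log2 scale, so 1 unit is 2-fold. Vancomycin ZT2 and ZT14 differed in that percentile, 490.8 against 651.1, and in the share of spots well above background, 60.6% against 62.2%.

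In the circadian clock, CLOCK or NPAS2 pairs with BMAL1, the product of Arntl, and drives Per, Cry and Nr1d1 from E-boxes, short DNA motifs. The PER and CRY proteins then repress that pair, NR1D1 (REV-ERB alpha) represses Arntl, and the PAR bZIP factors DBP, TEF and HLF carry the rhythm to output genes through D-boxes. Kidney has a strong clock that times transport and metabolism. Kidney origin showed in the markers: all 34 proximal tubule genes examined were above background on both arrays, among them Kap, the androgen-regulated kidney protein, at 7.94 and 9.08, and Miox, which starts inositol breakdown, at 7.87 and 8.78. All 14 podocyte genes examined and all 16 of the thick ascending limb were also measured on both arrays.

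To show short motifs in clock genes that lay higher or lower at ZT14, 5 promoters are printed. Each is the 250 bases before the RefSeq start, read along the gene on GRCm38.p6. Capitals mark the E-box CACGTG, its variant CACGTT, the D-box TTATGTAA and the ROR element TAGGTCA, searched on both strands, so a reverse match appears as AACGTG or TGACCTA. Cry1 lies at chr10:85185055-85185304 on the minus strand, Ciart at chr3:95882229-95882478 (minus), Per3 at chr4:151044666-151044915 (minus), Nr1d1 at chr11:98775378-98775627 (minus) and Nfil3 at chr13:52981040-52981289 (minus).
Cry1: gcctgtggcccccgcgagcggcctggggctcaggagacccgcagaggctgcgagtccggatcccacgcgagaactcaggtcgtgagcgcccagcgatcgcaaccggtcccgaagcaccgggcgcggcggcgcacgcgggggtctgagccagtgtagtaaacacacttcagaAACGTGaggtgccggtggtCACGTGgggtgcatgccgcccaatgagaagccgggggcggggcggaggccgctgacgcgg
Ciart: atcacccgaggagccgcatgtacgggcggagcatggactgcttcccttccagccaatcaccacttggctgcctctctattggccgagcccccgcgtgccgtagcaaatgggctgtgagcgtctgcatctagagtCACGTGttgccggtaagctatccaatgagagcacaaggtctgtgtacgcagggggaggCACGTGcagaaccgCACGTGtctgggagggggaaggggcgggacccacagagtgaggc
Per3: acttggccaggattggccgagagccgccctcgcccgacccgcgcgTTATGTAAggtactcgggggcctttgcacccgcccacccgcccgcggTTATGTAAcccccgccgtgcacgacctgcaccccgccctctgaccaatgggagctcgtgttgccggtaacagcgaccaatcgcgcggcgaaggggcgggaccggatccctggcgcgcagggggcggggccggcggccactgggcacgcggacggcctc
Nr1d1: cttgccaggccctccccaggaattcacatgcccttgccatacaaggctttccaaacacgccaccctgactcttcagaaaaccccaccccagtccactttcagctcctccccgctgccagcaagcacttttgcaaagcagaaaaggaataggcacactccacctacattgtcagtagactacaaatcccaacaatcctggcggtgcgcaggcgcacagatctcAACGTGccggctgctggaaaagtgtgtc
Nfil3: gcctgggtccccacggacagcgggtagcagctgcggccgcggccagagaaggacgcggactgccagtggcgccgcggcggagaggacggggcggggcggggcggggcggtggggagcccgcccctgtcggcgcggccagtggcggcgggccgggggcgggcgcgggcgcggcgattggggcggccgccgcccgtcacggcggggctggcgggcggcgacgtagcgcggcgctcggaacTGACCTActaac

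Cry1 held an E-box and the variant, the nearer of them starting 60 bases before the start, and Ciart held 3 E-boxes. Per3 held 2 D-boxes, Nr1d1 1 variant E-box and Nfil3 1 ROR element. Of the 32 clock genes and outputs listed, 25 had at least 1 promoter in the table, and over their 34 windows the E-box was found for 7 genes, the variant for 5, the D-box for 2, the ROR element for 2 and the cyclic AMP element TGACGTCA for 1. Over the same 250 bases of all 32851 promoters, 6.02% held the E-box, 3.85% the variant, 0.82% the D-box, 2.23% the ROR element and 1.55% the cyclic AMP element. These shares are per promoter, whereas the clock counts are per gene. Some clock genes have more than 1 promoter, so the 2 are not in the same unit. A match is a description of the letters in the window and not of a bound site. The 5 printed promoters were picked from windows with a match, while those of Arntl, Clock, Npas2, Dbp and Usp2 held none.

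Over all genes the vancomycin kidneys at the 2 times were close, with r = 0.975 between their levels, a median difference of 0.03 and 65.1% of the genes measured on both arrays within 0.5 of 0. Of the 23372 genes, 21129 were above background on both arrays, 1515 only at ZT14 and 728 only at ZT2. Of them, 2201 (9.42%) were 2-fold or more higher at ZT14 and 762 (3.26%) were 2-fold or more lower. In 435 of the higher and 171 of the lower genes 1 array was not well above background, and the difference is a bound: the brighter signal against the lowest signal well above background on the dim array, or the dim signal itself where that is higher. Centring the arrays on the median probe instead shifted the median of all genes by -0.14 and gave 1696 higher and 1148 lower, so the share of higher genes among those past 2-fold was 59.6% in place of 74.3%. At 8-fold or more, 77 genes were higher and 34 lower, bounds included.

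The saline kidneys showed a similar share of genes past 2-fold, 8.56% higher and 3.25% lower at ZT14. Among the 20760 genes above background on all 4 arrays, 1725 were higher at ZT14 in vancomycin and 1459 in saline, and 1001 were in both sets, 58.0% of the vancomycin set and 68.6% of the saline set. The lower sets shared 188 genes, 32.9% of the 571 in vancomycin and 32.6% of the 577 in saline. Across these genes, which are not independent replicates, the differences had r = 0.643, and the arrays of each treatment at a time shared a slide. That left 724 genes past 2-fold higher in vancomycin and not in saline, and 383 lower; whether the treatments differ in them was not tested. In 120 of the 724, the vancomycin ZT2 array lay 2-fold or more below both saline arrays, and in 37 the vancomycin ZT14 array lay 2-fold or more above both. For the 383, the ZT2 array lay that far above both saline arrays in 45 genes and the ZT14 array that far below both in 72.

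**Figure D1:**
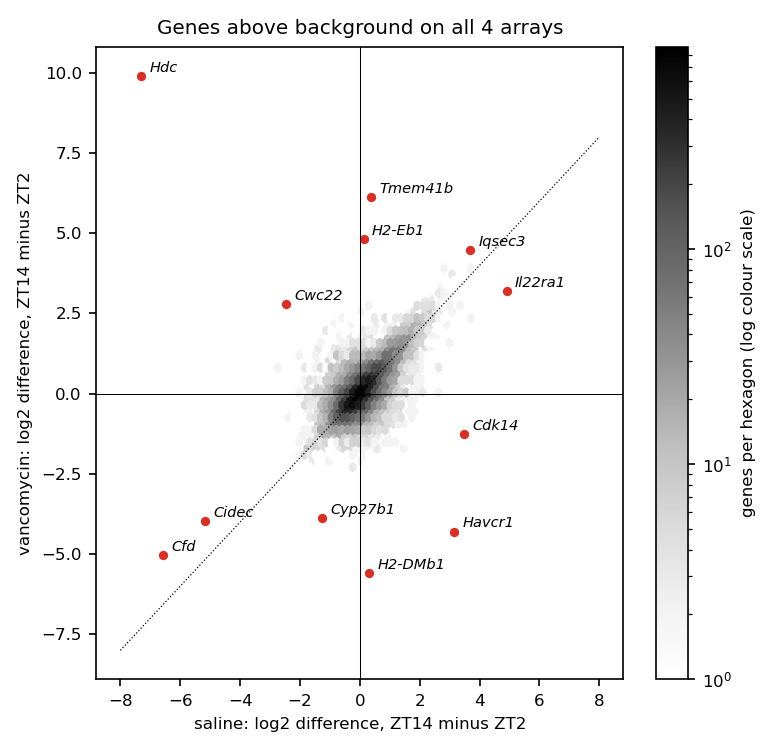
Time difference (log2, ZT14 minus ZT2) in vancomycin kidneys against that in saline kidneys for the 20760 genes above background on all 4 arrays; shading is the number of genes per hexagon on a log scale, the dotted line is equality and named genes are in red. Most genes lie near the line, while Hdc, Tmem41b, H2-Eb1, H2-DMb1, Havcr1, Cwc22 and Cdk14 lie far from it.

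Probe agreement set a limit on single genes. Of the 300 genes that were 2-fold or more higher at ZT14 and had a second probe above background on both arrays, the second probe had the same sign in 194 and reached 0.5 in 105. For the 116 lower genes of that kind the numbers were 80 and 51. The other 1466 higher and 475 lower genes measured on both arrays rest on 1 probe. The share of probes 2-fold or more higher at ZT14 was 4.83% at 30 to 35% GC and 39.0% above 70% GC in vancomycin, and 3.75% and 36.0% in saline. The part of probe GC content in the higher genes was not tested.

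**Figure D2:**
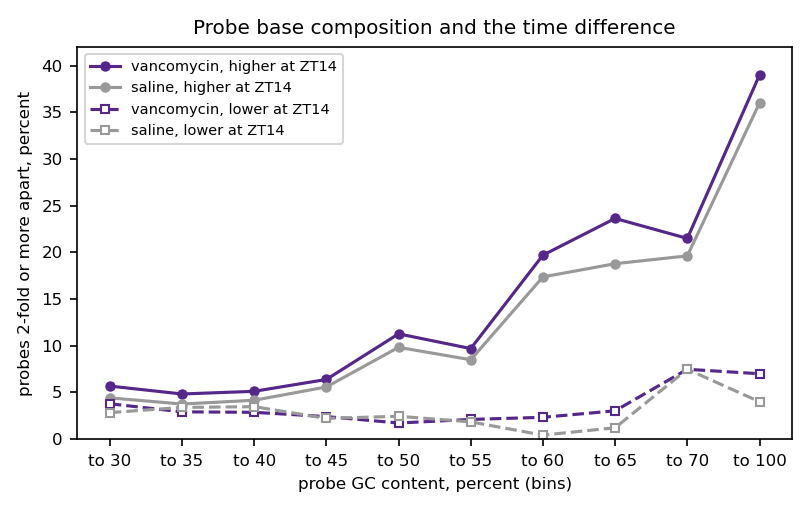
Percentage of probes 2-fold or more apart between ZT14 and ZT2, in bins of probe GC content, for probes above background on all 4 arrays; filled points are higher and open squares lower at ZT14, in purple for vancomycin and grey for saline. The share of higher probes is greatest in the bin of highest GC, 39.0% in vancomycin and 36.0% in saline over 100 probes.

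Clock activator and repressor genes mostly differed in opposite directions in the vancomycin kidneys. Arntl, the activator gene, lay at -0.67 at ZT2 and -1.40 at ZT14, against -1.79 and -2.54 in saline. Its level was thus lower at ZT14 in both treatments, by -0.73 and -0.75, and 2 further probes gave -1.05 and -1.32 in vancomycin. Clock differed by -0.48 (saline -0.08), and its partner gene Npas2 by -1.40 (saline -0.50, a bound). Rora, a nuclear receptor that activates Arntl, differed by -0.35 (saline 0.04) and its second probe gave 0.46. Of the 5 activator genes measured 4 had a negative difference. In the list 1 gene was 2-fold lower and 1 was 2-fold higher, beside 3.26% and 9.42% of all genes. The median was -0.48 (saline -0.02), beside 0.03 for all genes.

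The repressor arm ran the other way except for Nr1d1. Of 10 repressor genes measured 9 had a positive difference, with a median of 0.78 (saline 0.59). Past 2-fold, 1 gene was higher and 1 lower, beside 9.42% and 3.26% of all genes. Cry1, which blocks the activator pair, lay at -4.57 at ZT2 and -3.23 at ZT14, against -5.22 and -3.57 in saline. The gene was higher at ZT14 under both treatments, by 1.34 and 1.64. Per2 differed by 0.87 (saline 0.68), Per1 by 0.55 (saline 0.21) and Per3 by 0.90 (saline 0.22). Cry2 differed by 0.85 (saline 0.60) and Nfil3 by 0.72 (saline 0.57), with a second Nfil3 probe at 0.32. Ciart, which encodes the repressor CHRONO, differed by 0.83 (saline 0.84) although its level was low in both vancomycin arrays, at -4.94 and -4.11 against -2.77 and -1.93 in saline. Nr1d1 lay at -0.71 at ZT2 and -3.04 at ZT14, and in saline at -0.02 and -1.62. Nr1d1 was 5.02-fold lower at ZT14 in vancomycin, a difference of -2.33 (saline -1.60), while its paralogue Nr1d2 differed by 0.48 (saline 0.72), with further probes at -0.02 and -0.03.

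Dbp, a PAR bZIP factor gene known for its strong rhythm, lay at 2.41 at ZT2 and 3.20 at ZT14 in vancomycin, and at 4.44 and 4.93 in saline. Both treatments were higher at ZT14, by 0.79 and 0.49, and the second Dbp probe gave 1.59 and 0.99. Among the outputs, Wee1, a kinase that holds back mitosis, differed by 1.33 (saline 1.04), the deubiquitinase gene Usp2 by 1.01 (saline 0.79) and Por, the electron donor of the P450 enzymes, by 0.71 (saline 0.67). Leo1, of the PAF transcription complex, had the largest difference of the list with 1.82 (saline 1.29). Of the 13 outputs measured on both arrays 11 were positive, with a median of 0.71 (0.53 with a bound for Rasd1, saline 0.59). In all, 3 of 14 were 2-fold higher, beside 9.42% of all genes. The 8 clock kinases and ubiquitin ligases, by contrast, had a median of -0.19, and none passed 2-fold. Btrc, a ubiquitin ligase adaptor for PER, was the farthest of them with -0.78 and a second probe at -0.83.

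**Figure D3:**
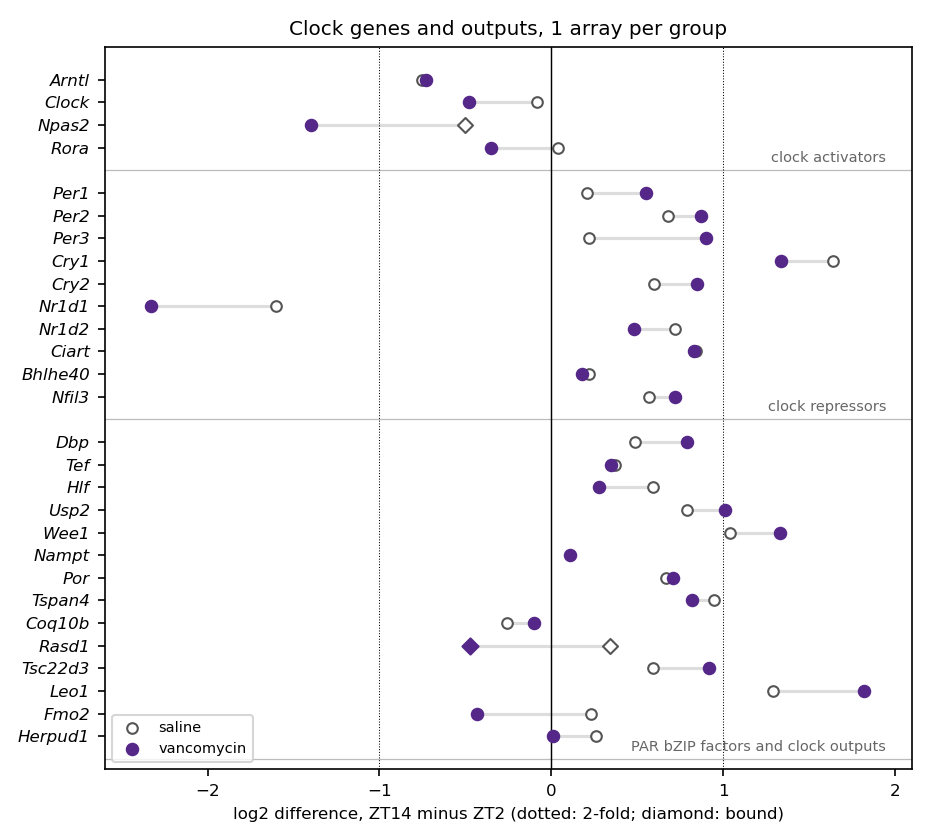
Log2 difference, ZT14 minus ZT2, of the clock activator, repressor and output genes reported here in vancomycin (purple) and saline (open) kidneys, 1 array per group; diamonds are bounds and dotted lines mark 2-fold. Arntl, Clock, Npas2 and Nr1d1 lie left of 0 in both treatments, and Per, Cry, Ciart, Nfil3, Dbp and Wee1 lie right of it.

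The largest difference of all belonged to Hdc, histidine decarboxylase, the enzyme that makes histamine, and it was opposite in sign between the treatments. Hdc (probe at mm9 chr2:126419516-126419575) lay at -4.84 at ZT2 and 5.07 at ZT14 in vancomycin, and at 2.62 and -4.69 in saline. Vancomycin kidney was therefore 962-fold higher at ZT14, a difference of 9.91, whereas saline kidney differed by -7.31. A further pair of Hdc probes, not above background at vancomycin ZT2, read -5.91 and -7.59 there and -1.54 and 0.06 at ZT14. Of the other histamine and mast cell genes measured, the histamine receptor Hrh3 differed by -1.09 and Kit, the mast cell growth factor receptor, by -0.62.

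Behind Hdc, Tmem41b, an endoplasmic reticulum lipid scramblase, lay at -3.81 and 2.33 in vancomycin and at 1.86 and 2.23 in saline. The vancomycin ZT2 array was the low one, 70.6-fold below ZT14, but the second probe differed by only 1.06. H2-Eb1, an MHC class II chain, had the same arrangement with -1.13 and 3.68 against 3.11 and 3.24 in saline. Wnt10a and Lhfpl1 also read low on the vancomycin ZT2 array alone and differed by 3.97 and 3.90 (saline 0.56 and -0.75). Of the 15 genes with ordinary symbols that were highest at ZT14, 8 were 2-fold or more higher in saline as well, 4 differed by less than 2-fold there and 3 were 2-fold or more lower. Those shared with saline included Iqsec3, a synaptic exchange factor for ARF proteins (4.48, saline 3.69), Dct, of melanin synthesis (4.40, saline 4.12), Vax2, an eye homeobox gene (3.65, saline 3.14), and Grin2d, a glutamate receptor subunit whose probe is 81.7% GC (3.34, saline 2.96). Bounds of the same sort were found for Pianp, Casp14, a skin caspase, and Mchr1, a hypothalamic peptide receptor, at least 5.18, 4.12 and 3.95 higher in vancomycin and at least 5.55, 4.43 and 3.76 in saline.

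At the other end, Azgp1, zinc-alpha-2-glycoprotein, lay at 2.95 in the vancomycin ZT2 kidney and at -4.78, -5.10 and -5.87 in vancomycin ZT14, saline ZT2 and saline ZT14. Only the vancomycin ZT2 array was high, and ZT14 was 214-fold lower, a difference of -7.74. H2-DMb1, which helps to load peptide on MHC class II, was low only at vancomycin ZT14, at -3.85 against 1.73, 0.65 and 0.95 at vancomycin ZT2, saline ZT2 and saline ZT14. Pik3c2g, a lipid kinase, was likewise lowest there at -1.84 against 1.62, and its other probes above background on both arrays gave -3.42 and -1.40. Ftcd, of histidine breakdown, was lower by similar amounts in vancomycin and saline, -3.06 and -3.30. Spink6, a protease inhibitor gene, and Sprr2f, a cornified envelope gene, were not well above background at vancomycin ZT14, and their bounds were -6.92 and -4.71 (saline -0.71 and -2.50). Of the 15 lowest genes, 7 were 2-fold or more lower in saline too, 3 were within 2-fold, 1 was higher and 4 were not above background in saline.

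**Figure D4:**
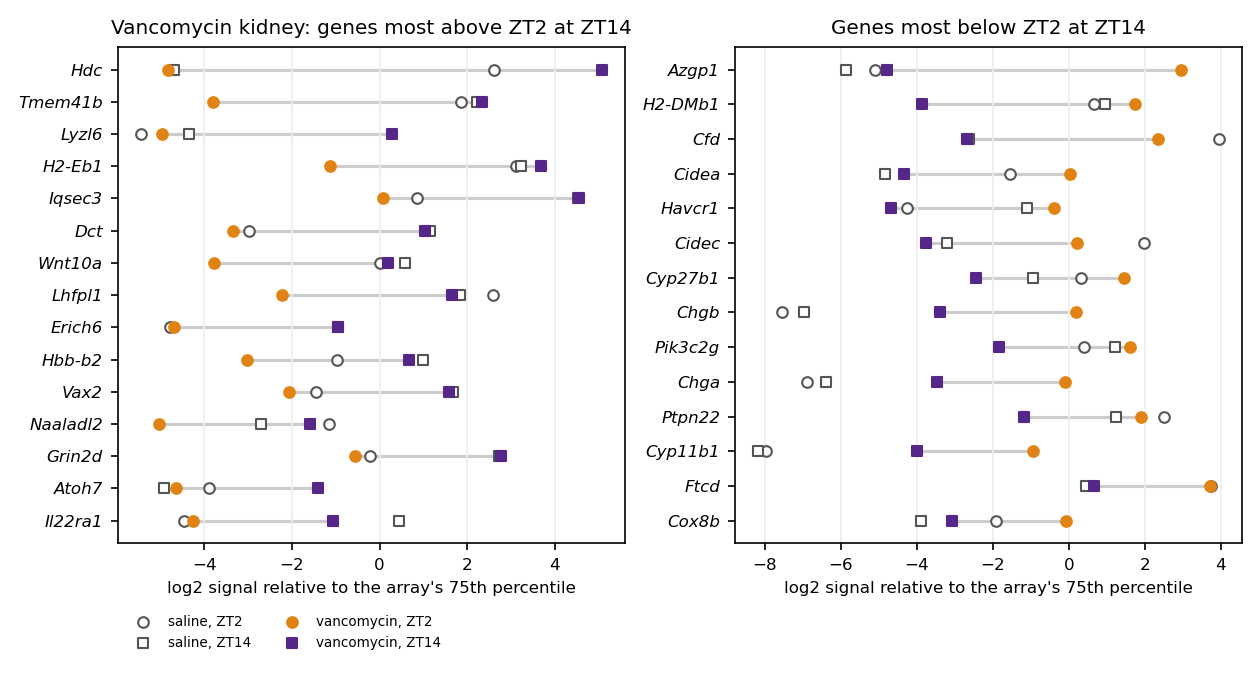
Log2 levels on the 4 arrays of the genes named as most above and most below their ZT2 level at ZT14 in vancomycin kidney; filled symbols are vancomycin, joined by a line, and open symbols saline. Iqsec3, Dct, Erich6, Vax2 and Grin2d have both ZT14 symbols on one side of both ZT2 symbols, while Tmem41b, H2-Eb1, Azgp1 and H2-DMb1 have 1 array apart.

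Havcr1, which encodes the tubular injury marker KIM-1, also ran opposite to saline. It lay at -0.38 at ZT2 and -4.68 at ZT14 in vancomycin, and at -4.27 and -1.11 in saline, so the high arrays were vancomycin ZT2 and saline ZT14. Vancomycin kidney was 19.7-fold lower at ZT14, a difference of -4.30, against 3.15 in saline. Over 26 injury markers measured 3 were higher and 3 lower, beside 9.42% and 3.26% of all genes, and the median was -0.05, but 0.11 with bounds and 0.12 as a mean over probes. Lcn2 (NGAL) was at 0.78 and Spp1, osteopontin, at -0.28, both chosen after their values were seen. Fgg, of fibrinogen, was lower under both treatments (-2.21, saline -2.11), and the chemokine gene Cxcl1 was higher at 2.34 (saline 0.82).

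Cyp27b1, the kidney enzyme that makes active vitamin D, lay at 1.45 at ZT2 and -2.44 at ZT14 in vancomycin and at 0.32 and -0.94 in saline. It was 14.7-fold lower at ZT14 in vancomycin, a difference of -3.88, and -1.26 in saline. Slc34a3, the phosphate transporter NaPi-IIc, differed by -1.20 with a second probe at -0.85 (saline -0.12), and Vdr, the vitamin D receptor, by -0.90 with a second probe of opposite sign at 0.34. The 16 genes of mineral handling had a median of 0.02, or -0.16 under quantile normalization. Of them 2 were 2-fold lower, beside 3.26% of all genes.

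Cell cycle genes were higher at ZT14 in the vancomycin pair. Of 26 measured, 12 (46.2%) were 2-fold higher and 1 was 2-fold lower, beside 9.42% and 3.26% of all genes, with a median of 0.96. In saline the same genes had a median of -0.21, with 1 higher and 1 lower. Mki67, the proliferation marker Ki-67, lay at -2.01 and -0.10 in vancomycin against -0.93 and -0.69 in saline. Foxm1, a driver of mitotic genes, lay at -4.29 and -2.36 against -3.26 and -3.02, Top2a, topoisomerase II, at -3.34 and -1.67 against -2.23 and -2.54, and Ccna2, cyclin A, at -2.65 and -1.01 against -1.67 and -1.85. Their vancomycin differences were 1.91, 1.93, 1.67 and 1.64, and for Ccna2 a second probe gave 1.79, for Top2a 0.43. In 18 of the 24 genes measured on both arrays the vancomycin ZT2 array was the lowest of the 4. In 18 the vancomycin ZT14 array was the highest. These counts were not taken over all genes. Among 310 solute carrier entries, grouped after their values were seen, they were 77 and 101. High counts were not particular to the cell cycle list. Vancomycin ZT2 was also the lowest in 12 of 14 endothelial and 14 of 21 extracellular matrix genes. Vancomycin ZT14 was the highest in 14 of 22 oxidative phosphorylation genes. For the 34 proximal tubule genes both counts were 7. Wee1, given above, is 1 of the 12. Cdkn1a, the cell cycle inhibitor p21 and the 1 gene of the list 2-fold lower, was lower at ZT14 in both treatments (-1.10, saline -1.68). The linear levels of the 26 genes summed to 40.4 at ZT2 and 40.5 at ZT14, and Ccnd1, cyclin D1, the brightest of them and chosen here for that, differed by -0.79.

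Genes of red blood cells were also higher at ZT14 with vancomycin. Hba-a1, an alpha globin gene, lay at 2.84 at ZT2 and 5.27 at ZT14 in vancomycin and at 4.93 and 4.97 in saline. The vancomycin ZT2 array was thus the low one, with a difference of 2.43 and a second probe at 2.57. Hba-a2 (2.44) and Hbb-b1 (2.38) had similar differences, and Alas2, which starts haem synthesis in red cells, differed by 2.25 (saline -0.40). Hbb-b2 had the largest difference of the list, 3.71, and was higher at ZT14 in saline as well, by 1.96. Globin copies are nearly identical and their probes cannot be taken as independent. Of 12 erythroid genes measured 6 were 2-fold higher, beside 9.42% of all genes, with a median of 1.45 (saline 0.02). In saline 2 of the 12 were 2-fold higher, beside 8.56% of all genes. The summed linear level of the list relative to the 75th percentile was 33.3 at vancomycin ZT2. It was 84.1, 86.6 and 105 at saline ZT2, saline ZT14 and vancomycin ZT14. In such bulk tissue more cells of a type and more RNA per cell cannot be told apart.

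Most genes listed for the adrenal gland, which lies beside the kidney, were lower at ZT14 with vancomycin. Chgb and Chga, granule proteins of chromaffin cells, lay at 0.20 and -0.10 at vancomycin ZT2 and at -3.40 and -3.47 at ZT14, and were not above background in saline at either time. Cyp11b1, the enzyme of the last step to corticosterone, lay at -0.94 and -4.0 and was likewise not above background in saline, and the brighter probe of Dbh, which makes noradrenaline, was above background only at ZT2 (bound -3.26). A second Dbh probe, above background at both times, differed by 0.09. Cyp21a1, the steroid 21-hydroxylase, lay at 1.41 and -1.46 in vancomycin against -3.99 and -2.84 in saline. A second Cyp21a1 probe had the opposite sign, at -7.59 at vancomycin ZT2, where it was not above background, and -4.83 at ZT14. Of 15 adrenal genes measured 9 were 2-fold lower and 2 higher, beside 3.26% and 9.42% of all genes, with a median of -1.47, or -1.77 with bounds. The 2 higher genes were Cyp17a1 (2.40, saline 2.25) and Hsd3b6 (1.98, saline 0.99), chosen after their values were seen. The numbers of genes above background were 10 and 10 of 15 in saline ZT2 and ZT14, 15 at vancomycin ZT2 and 14 at vancomycin ZT14. The summed linear level was 10.6 and 10.2 in vancomycin and 5.52 and 12.5 in saline, with Cyp17a1 the brightest at ZT14. The part of adrenal tissue in the other differences was not tested.

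Several fat cell genes were lower at ZT14 under both treatments, and the part of fat tissue in other differences was not tested. Cfd, adipsin, lay at 2.35 at ZT2 and -2.68 at ZT14 in vancomycin and at 3.95 and -2.63 in saline, differences of -5.03 and -6.58, and its second probe gave -4.73 in vancomycin. Adiponectin (Adipoq) was above background only at ZT2 in both treatments, at least 20.2-fold higher than at ZT14 in vancomycin, and the lipid droplet gene Cidec differed by -3.98 (saline -5.17). Ucp1 and Cidea mark brown fat: Ucp1 was above background only on the vancomycin ZT2 array, at -1.52, and Cidea lay at 0.02 there and at -1.56, -4.83 and -4.34 in saline ZT2, saline ZT14 and vancomycin ZT14. Of 16 fat cell genes 7 were 2-fold lower in vancomycin, beside 3.26% of all genes, with a median of -0.22 (-0.58 with bounds). In saline 9 of 15 were, beside 3.25%, with a median of -0.98. The genes above background numbered 16 and 13 in vancomycin and 15 and 12 in saline. Fabp4 and Cd36, which endothelium also expresses, differed by only -0.22 and -0.42, and were named after their values were seen. The summed linear level of the list was 117 at vancomycin ZT2 and 75.9 at ZT14, against 171 and 109 in saline.

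Entries of the major histocompatibility complex, grouped after their values were seen, were mostly lower at vancomycin ZT14. Of 27 measured 13 were 2-fold lower and 1 higher, beside 3.26% and 9.42% of all genes, with a median of -0.99, whereas in saline the median was 0.10 with 1 lower and 4 higher. H2-D1, a class I chain, lay at 5.09 at ZT2 and 2.93 at ZT14 in vancomycin and at 5.06 and 3.99 in saline, and H2-K1 at 5.67 and 3.94 against 5.16 and 4.69. The vancomycin ZT14 array was the lowest of the 4 in 17 of the 25 entries measured on both. It was the lowest in 72 of the 310 solute carrier entries, and the count over all genes was not taken. H2-Aa, a class II chain, differed by -2.0 (saline 0.41), while its partner H2-Ab1 differed by 0.53 and H2-Eb1, above, by 4.82. These genes are highly polymorphic and near-identical to each other, so probes can read several or miss an allele, and ICR mice differ in their alleles. The 20 interferon response genes had a median of -0.03, or 0.02 as a mean over probes. Of them 2 were 2-fold higher (Ifi44 1.87, Isg15 1.37), near the 9.42% of all genes.

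**Figure D5:**
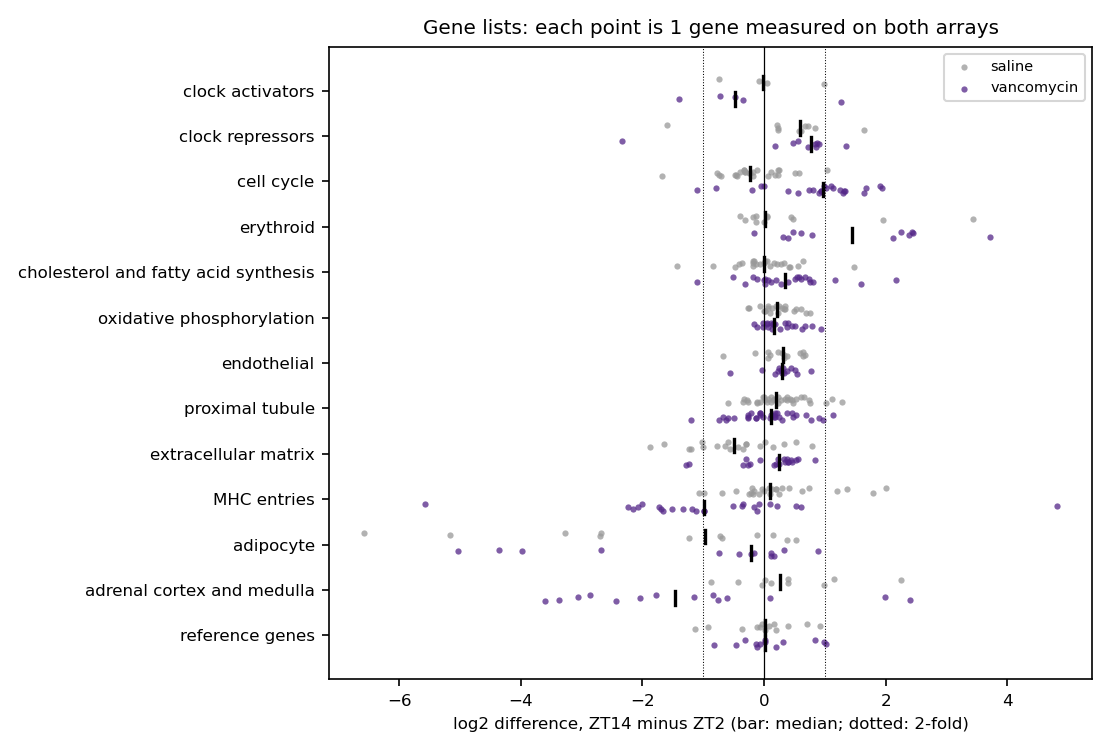
Log2 difference, ZT14 minus ZT2, of each gene measured on both arrays in 12 gene lists and the MHC entries, in vancomycin (purple, lower row) and saline (grey, upper row); black bars are medians and dotted lines mark 2-fold. Cell cycle and erythroid points are shifted right and adrenal and MHC points left in vancomycin, while endothelial and clock repressor medians are alike in both treatments.

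Sterol genes passed 2-fold about as often as all genes did. Of 24 measured 18 were positive, with a median of 0.34 (saline 0.00), 3 (12.5%) were 2-fold higher and 1 lower, beside 9.42% and 3.26% of all genes. Srebf2, the master regulator of sterol genes, differed by 1.59 (saline 1.48), but its second probe by -0.02. The lower gene was Pnpla3, a lipid droplet protein gene, at -1.10 (saline -1.43), and its second probe gave 1.09. Of the 29 PPAR-alpha targets, 5 were 2-fold higher and 1 lower (Hadha, of fatty acid oxidation, -1.06, named after its value was seen), beside 9.42% and 3.26% of all genes. Among the higher were Pdk4, which restrains pyruvate oxidation (1.33, saline 0.43), Angptl4, an inhibitor of lipoprotein lipase (1.18, saline 0.79), and Plin2, a lipid droplet coat (1.30, saline 1.68, second probe 1.26). The median of the 29 was 0.10 and became -0.03 under quantile normalization.

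Among 21 heat shock and chaperone genes, the median difference was -0.08 in vancomycin and -0.18 in saline. Hspa1a, the inducible HSP70, lay at 4.79 at ZT2 and 3.31 at ZT14 in vancomycin and at 2.63 and 1.20 in saline, differences of -1.47 and -1.43. Dnajb1, its co-chaperone, differed by -0.97 (saline -0.94), and 2 of the 21 genes were 2-fold lower, beside 3.26% of all genes. Ppp1r3b, which directs glycogen storage, was higher by 2.60 and 2.59. Among glucocorticoid-responsive genes 3 of 20 were higher and 1 was lower, near the 9.42% and 3.26% of all genes, with Tat, tyrosine aminotransferase, at 1.25 (saline 1.81) and Tsc22d3 (GILZ) at 0.92 (saline 0.59).

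Kidney segments differed little between the times. The medians were 0.10 for 34 proximal tubule genes, -0.03 for 16 thick ascending limb genes, 0.05 for 16 genes of water handling in the collecting duct, -0.08 for 16 intercalated cell genes and 0.04 for 14 podocyte genes. The proximal tubule median was -0.16 under quantile normalization, those of podocytes and water handling were -0.09 with median centring, and Kap (1.14, saline 1.11) was its only gene 2-fold higher. Endothelial genes were positive in 12 of 14, with a median of 0.30 (saline 0.31) and none past 2-fold. Of the candidate vancomycin carriers, the efflux pump genes Abcb1a and Abcb1b differed by 1.46 and -1.44 (saline -0.31 and 1.17), and Slc47a2, a multidrug extrusion transporter, by 1.30 (saline 1.23). Extracellular matrix genes had a median of 0.25 in vancomycin and -0.49 in saline. Of the 21 measured, 2 and 7 were 2-fold lower, beside 3.26% and 3.25% of all genes. Postn, a matrix protein of fibroblasts named after its values were seen, lay at -3.30 and -2.90 in vancomycin against -1.62 and -3.27 in saline, so that the saline ZT2 array was the high one. The 13 reference genes had a median of 0.01 and ranged from -0.82 to 1.02, with a median of -0.28 under quantile normalization.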

How the data were processed

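The 4 samples were grouped by their titles. Per the file headers, spot signals were read by Agilent Feature Extraction 10.7.1.1, whereas the submitters' processing notes name 9.5.1.1. The deposited processed signal is an intensity with background subtracted and no normalization between arrays. The authors also deposited a quantile-normalized table of intensity values, used only as an alternative.

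Control and flagged spots were left out and replicate spots averaged. The 75th percentile of an array was subtracted from its log2 signals, a probe counted as above background if at least 50% of its spots were flagged well above background, and the brightest probe stood for a gene. No test was possible with 1 array per group, and that number limits the precision. Replicate spots within an array had a median SD of 0.041 to 0.049 (log2), which is technical.

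Genes were named by rule: the 15 largest differences each way with ordinary symbols, 6 bounds each way, all listed clock genes, up to 4 of each other list and the 8 largest gaps to saline each way. Members and the 52 lists were chosen with earlier results of these data known. The counting was tested on simulated data. Alternatives were median centring, quantile normalization, normexp (limma 3.58.1 in R 4.3.3), the authors' table, a pseudocount of 16, other filters, mean over probes and other fold rules, and, chosen after seeing the data, second-probe support, GC correction and ordinary symbols only. Python 3.11.15 with pandas 2.3.3 was used. Symbols follow the deposited array annotation. RefSeq (GRCm38.p6) matched 32994 of 56605 probes by accession and 10224 by symbol only. A few genes that the rule names are not reported here, but count in the totals. Probe positions are mm9, per the file headers.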

Additional observations from a re-analysis of the deposited data

Results flagged for a closer look

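Among the named genes above background on all 4 arrays, 12 were 2-fold or more apart between the times in vancomycin and 2-fold or more apart the opposite way in saline. With 1 array per group the difference between the treatments was not tested. The value given is the vancomycin difference minus the saline difference, in log2 units. It was 17.22 for Hdc, 5.26 for Cwc22, a splicing factor gene, 5.04 for Naaladl2, 4.28 for Atoh7, a retinal transcription factor gene, and 3.87 for Cyp2b10, a xenobiotic P450. It was -7.45 for Havcr1, -4.72 for Cdk14, -4.20 for Adm2, an adrenomedullin-like peptide gene, -4.01 for Cyp21a1, -3.10 for Aldh1a1, of retinoic acid synthesis, -2.61 for Abcb1b and -2.61 for Igfbp1, an insulin-like growth factor binding protein gene.

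Cwc22 lay at -1.80 and 1.00 in vancomycin and at 1.51 and -0.95 in saline, and all 3 of its probes above background on both vancomycin arrays had the same sign. Cdk14 lay at -0.83 and -2.09 in vancomycin and at -4.42 and -0.95 in saline, so the saline ZT2 array was the low one. A second, dimmer Cdk14 probe differed by only -0.50 in vancomycin and 0.51 in saline. Naaladl2 had a second probe of the opposite sign, -0.39, and so did Cyp21a1, at 2.76, not above background at vancomycin ZT2.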

How the results depend on the processing

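The counts of genes 2-fold higher and lower, 2201 and 762, kept within 1.5 times under quantile normalization (1825 and 990), the authors' table (1822 and 993), the mean over probes, both arrays above background and GC correction. They became 939 and 269 under normexp, 1381 and 474 with a pseudocount of 16, and 3929 and 2575 with no filter on dim probes. Median centring raised the lower count to 1148. The counts were 957 and 405 for ordinary symbols only and 105 and 51 with second-probe support, since fewer genes are counted there. They were 814 and 193 at 3-fold, and 4598 and 2663 at 1.5-fold. Of the normexp genes, 911 and 268 were in the main sets.

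Of the named genes, Dbh reversed to 0.09 where both arrays had to be above background, which takes another probe, and Ttn to -0.20 as a mean over probes; Pnpla3 went from -1.10 to 0.0 as such a mean, its 2 probes being opposite in sign. The cause was not tested. List medians kept their sign under every alternative run in 28 of 52 lists. The other 24 had medians within 0.20 of 0, oxidative phosphorylation among them (0.17, and -0.13 under quantile normalization). The adrenal median was -0.83 under normexp and -0.84 as a mean over probes, and the erythroid median 0.75 under normexp and 0.69 with no filter. No paired analysis was possible because each group has 1 array. Signal near background limits dim genes, which were given as bounds where 1 array fell below it.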

Other observations

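Histone and keratin entries, grouped after their values were seen, had positive medians in both treatments. Of 43 histone entries measured 14 were 2-fold higher and 1 lower, beside 9.42% and 3.26% of all genes, with a median of 0.33. In saline 8 were higher and 1 lower, beside 8.56% and 3.25% of all genes, with a median of 0.29. Of 24 keratin entries 5 were 2-fold higher and 0 lower, beside 9.42% and 3.26% of all genes, with a median of 0.62. In saline the keratins went both ways, with 4 higher and 2 lower, beside 8.56% and 3.25% of all genes, and a median of 0.28. Cytochrome P450 entries had 9 higher and 11 lower of 70, beside 9.42% and 3.26% of all genes, with a median of 0.12 (saline 0.21). Solute carrier entries, the transporters, had 14 higher and 14 lower of 325, beside the same shares of all genes. Their median was 0.07 (saline 0.01).

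C4b, complement component 4, was higher at ZT14 with vancomycin by 2.77, and its second probe gave 2.71 (saline 0.29 and 0.40). Its level was -0.49 at vancomycin ZT2 and 2.27 at vancomycin ZT14, against 0.52 and 0.81 in saline. The vancomycin ZT14 array was thus the highest and the vancomycin ZT2 array the lowest, on either side of both saline arrays. Hp, haptoglobin, was lower under both treatments, by -2.61 and -2.09.

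Tfrc, the transferrin receptor, lay at 0.89 and 1.91 in vancomycin and at 1.86 and 0.94 in saline, and a second probe gave 0.99 in vancomycin. The immediate early gene Fos differed by 0.79 in vancomycin and by -1.62 in saline.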
